A study of Homo sapiens with 9 samples.

Results

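The collagen chain genes are the protein-coding genes whose symbol is COL, a number, A and a number, and the GENCODE release 29 annotation holds 44 of them among 58237 genes. They were read in RNA-seq libraries of H358, an established human line from a non-small cell lung cancer, made from total RNA of cells grown in RPMI medium with serum. Of 3 groups of 3 libraries each, the first carried a CRISPR knockout of SMARCA4, the gene of BRG1 (BRG1 KO), the second a CRISPR knockout of SMARCA2, the gene of BRM (BRM KO), and the third was the parental line with neither knockout. BRG1 and BRM are the ATPases that SWI/SNF chromatin remodelling complexes use in place of each other. The sources used here do not say whether a knockout is 1 clone or a pool, where the guides cut, or whether replicates were separate cultures. The p-values therefore measure only the spread between these libraries, which may be technical, and since the parental line is the only control, an effect of the editing steps cannot be told apart from one of the lost gene.

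Collagen chains wind around each other into a triple helix, some as copies of a single chain and some only with partner chains, so that 1 protein can need several genes. Fibrillar collagens form the fibres of connective tissue, FACIT collagens bind to the surface of those fibres, and collagen IV makes the sheet of basement membranes. Beaded filaments, hexagonal networks and anchoring fibrils tie cells and basement membranes to the matrix around them, and a few collagens span the cell membrane. In lung, fibroblasts are the best known source of fibrillar collagen, while epithelial cells contribute to the basement membrane.

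The libraries held between 31969961 and 40679073 estimated reads. SMARCA4 stood at 21.2 to 23.9 CPM (reads scaled to a common library size with TMM factors) in BRG1 KO libraries, 239.8 to 249 CPM in BRM KO libraries and 212 to 244 CPM in parental libraries. SMARCA2 stood at 9.36 to 12.01 CPM in BRM KO libraries, 32.0 to 61.3 CPM in BRG1 KO libraries and 49.3 to 58.0 CPM in parental libraries, so each edited gene was lowest in its own group. BRG1 KO replicate 3 stood apart from replicates 1 and 2 of its group in several collagen genes. The share of reads from ribosomal protein genes was 10.1% and 10.7% in BRG1 KO replicates 1 and 2, 5.81% in replicate 3, and 4.97% to 6.30% in the 6 other libraries. Results that rest on replicate 3 are given with and without it. Because these are bulk samples, fewer cells of a type and less RNA per cell cannot be told apart.

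Collagen transcripts made up a larger part of the RNA in BRG1 KO cells than in the other groups. In TPM, a level per transcript length that lets genes be compared, the 44 chains summed to 913, 825 and 1158 TPM in BRG1 KO libraries, 473, 337 and 441 TPM in BRM KO libraries, and 308, 283 and 266 TPM in parental libraries. The groups did not overlap: every BRG1 KO library lay above every BRM KO library, and every BRM KO library above every parental one. As a share of all reads, the chains took 0.261% to 0.370% in BRG1 KO libraries, 0.0910% to 0.137% in BRM KO libraries and 0.0796% to 0.0899% in parental libraries.

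The make-up of the collagen RNA also differed between groups. Beaded filament chains (COL6) summed to 365 ± 72.8 TPM in BRG1 KO, 69.4 ± 9.38 TPM in BRM KO and 84.1 ± 11.5 TPM in parental libraries (SD, n = 3 each). Fibrillar chains summed to 127, 116 and 336 TPM in BRG1 KO libraries, against 42.0 to 56.8 TPM in BRM KO and 15.7 to 25.6 TPM in parental libraries. FACIT chains reached 119, 85.0 and 224 TPM in BRG1 KO libraries and lay between 15.6 and 18.0 TPM in all 6 others. Replicate 3 was the highest BRG1 KO library for fibrillar and FACIT chains and the lowest for beaded filament chains. The order was different for hexagonal network chains, at 17.4, 22.0 and 74.7 TPM in BRG1 KO libraries, 116, 80.2 and 98.2 TPM in BRM KO libraries and 69.7, 47.1 and 41.6 TPM in parental libraries. Basement membrane chains were scarce everywhere, at 0.902 to 2.76 TPM in BRG1 KO, 3.99 to 4.26 TPM in BRM KO and 0.502 to 0.653 TPM in parental libraries.

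**Figure D1:**
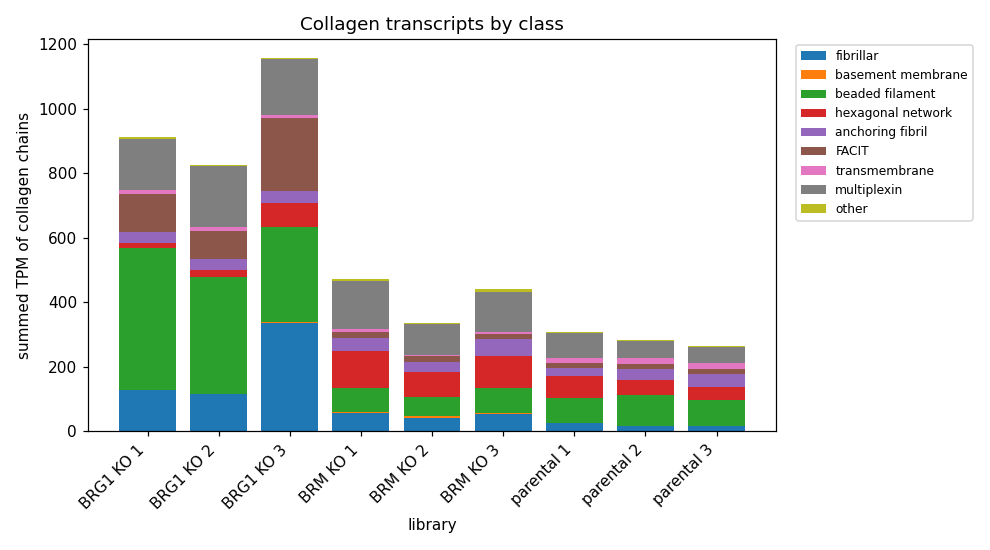
Summed TPM of the collagen chain genes (vertical axis) in each of the 9 libraries (horizontal axis), stacked by collagen class. The bars of the 3 BRG1 KO libraries reach 825 to 1158 TPM, those of BRM KO libraries 337 to 473 TPM and those of parental libraries 266 to 308 TPM, and the beaded filament block is the largest in BRG1 KO libraries 1 and 2.

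A few genes carried most of this RNA, and which ones they were differed by group. In BRG1 KO cells COL6A2 led with 213 ± 25.9 TPM, before COL18A1 with 173 ± 14.3 TPM, COL6A1 with 151 ± 47.0 TPM and COL1A1 with 95.4 ± 11.9 TPM (SD, n = 3). The library values of COL6A1 overlapped with those of both genes before it, so its place in the order is within the spread. COL3A1, at 21.2, 22.6 and 216 TPM, was the highest chain in replicate 3, before COL6A2 with 189 TPM. In BRM KO cells COL18A1 at 122 ± 26.2 TPM and COL8A1 at 98.0 ± 17.8 TPM overlapped and came before COL6A1 with 60.1 ± 9.84 TPM. Parental cells held COL6A1 at 71.4 ± 10.9 TPM, COL18A1 at 59.7 ± 15.6 TPM and COL8A1 at 52.7 ± 14.9 TPM, with library values of all 3 overlapping. A mean of at least 1 TPM was reached by 21 of the 44 chains in BRG1 KO, 15 in BRM KO and 15 in parental cells.

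Each gene was then tested between groups on its counts with edgeR's quasi-likelihood test, with Benjamini-Hochberg adjustment over all 18205 genes that passed a filter on low counts and a threshold of 0.05. Of the 44 chains, 34 passed the filter and 10 did not. Of the 34, 24 reached the filter's minimum of 0.268 CPM in libraries of all 3 groups, 6 in 2 groups and 4 (COL2A1, COL4A6, COL8A2 and COL11A1) in BRG1 KO libraries alone. The filter asks for 3 such libraries, and 8 chains had fewer than 3 outside BRG1 KO: those 4, COL23A1, COL25A1, COL27A1 and COL19A1. These 8 were tested because of their BRG1 KO libraries, so a higher value there is built into their choice, and their folds and p-values are to be read with that limit.

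In BRG1 KO against parental cells, 23 of the 34 tested chains rose, 1 fell and 10 did not pass, where 43.5% of all tested genes were called (21.6% higher and 21.9% lower). The median log2 difference of the 34 was 1.86, against -0.01 over all tested genes, and it includes the 8 chains tested because of their BRG1 KO libraries. By class, 9 of 10 tested fibrillar chains rose, 5 of 7 FACIT chains, 2 of 3 basement membrane chains and 2 of 3 beaded filament chains. The fibrillar COL2A1, COL11A1 and COL27A1 and the basement membrane COL4A6 are among these rises. They are also among the 8 chains tested because of their BRG1 KO libraries. Of the 8 chains tested because of their BRG1 KO libraries 7 rose, and of the 26 others 16 rose and 1 fell. The numbers without BRG1 KO replicate 3 were 24 higher and 2 lower, where 3876 of 18838 tested genes were higher and 5029 lower.

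Fewer chains moved in BRM KO against parental cells: 8 of the 34 rose, 5 fell and 21 did not pass, where 37.4% of all tested genes were called (21.0% higher and 16.4% lower). The share of called chains was thus close to that of all genes, and so was the median, 0.16 against 0.09. In BRG1 KO set directly against BRM KO cells, 23 of the 34 were higher, 7 were lower and 4 did not pass, where 45.3% of all tested genes were called (21.6% higher and 23.8% lower), with a median of 2.05 against -0.00. Setting COL11A1, which had 0 reads in BRM KO libraries, at its bound left the medians at 0.16 and 2.05. Without BRG1 KO replicate 3 the direct comparison gave 22 higher and 4 lower, where 4250 of 18838 tested genes were higher and 4759 lower. The 7 lower chains also became 4 without BRG1 KO replicate 2 or BRM KO replicate 1, and 3 without BRM KO replicate 3. Over all tested genes the lower count was 3970, 3845 and 3583 without these libraries in turn, beside 4327 with all. Of the 7 lower chains, COL4A3, COL4A4 and COL8A1 stayed past the threshold whichever library was left out. COL1A2, COL9A3, COL17A1 and COL28A1 did not. Leaving out the 8 chains tested because of their BRG1 KO libraries, 17 of 26 were higher and 7 lower, while the median of 2.05 includes those 8. The 3 comparisons share libraries and are not independent of each other.

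The calls against parental cells are set side by side here, and both use the same parental libraries. COL1A1, COL2A1, COL4A4, COL18A1, COL21A1 and COL25A1 rose in each knockout. COL5A2 and COL16A1 rose in BRG1 KO and fell in BRM KO cells. COL6A3, COL13A1 and COL15A1 fell in BRM KO cells and did not pass in BRG1 KO cells, whereas COL4A3 and COL28A1 rose in BRM KO cells and did not pass in BRG1 KO cells. COL17A1 was the chain that fell in BRG1 KO cells, and COL1A2, COL7A1, COL8A1, COL9A3 and COL19A1 passed in neither knockout. The remaining 15 tested chains rose in BRG1 KO cells and did not pass in BRM KO cells, which does not by itself show that the knockouts differ. In the direct comparison 14 of these 15 differed between the knockouts, and COL23A1 did not pass (1.91 ± 0.92, edgeR adjusted p = 0.11). The 15 were picked by their calls against parental cells, which favours a direct difference. Of all tested genes 45.3% were called in the direct comparison, and genes with the same pair of calls were not counted. COL4A6, COL8A2, COL11A1, COL23A1 and COL27A1 among the 15 were tested because of their BRG1 KO libraries.

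**Figure D2:**
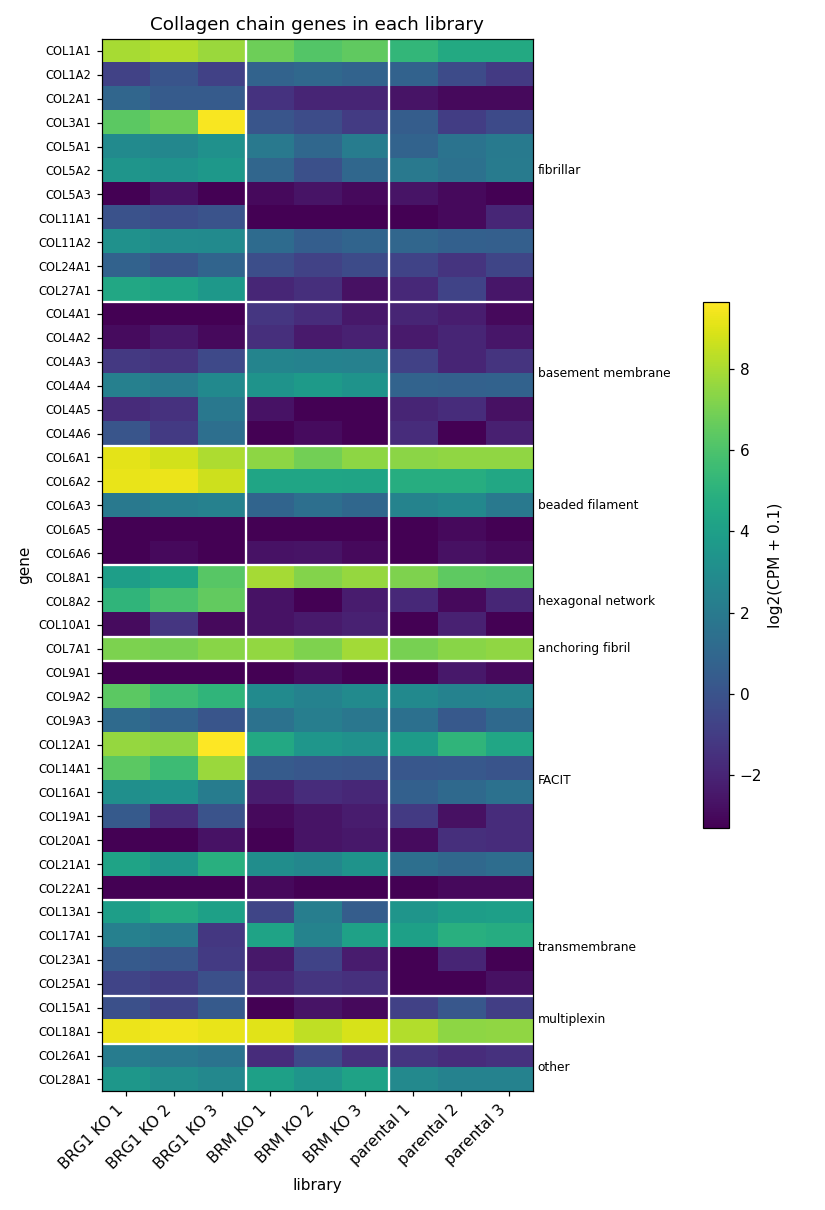
Level of each of the 44 collagen chain genes (rows, by class) in each of the 9 libraries (columns), as log2 of CPM plus 0.1. Rows such as COL8A2, COL14A1 and COL27A1 are brighter in the 3 BRG1 KO columns and dark in the rest. COL6A2 is brightest in the BRG1 KO columns and not dark elsewhere. COL4A3 is brightest in the BRM KO columns, and COL3A1 and COL12A1 are brightest in BRG1 KO library 3.

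**Figure D3:**
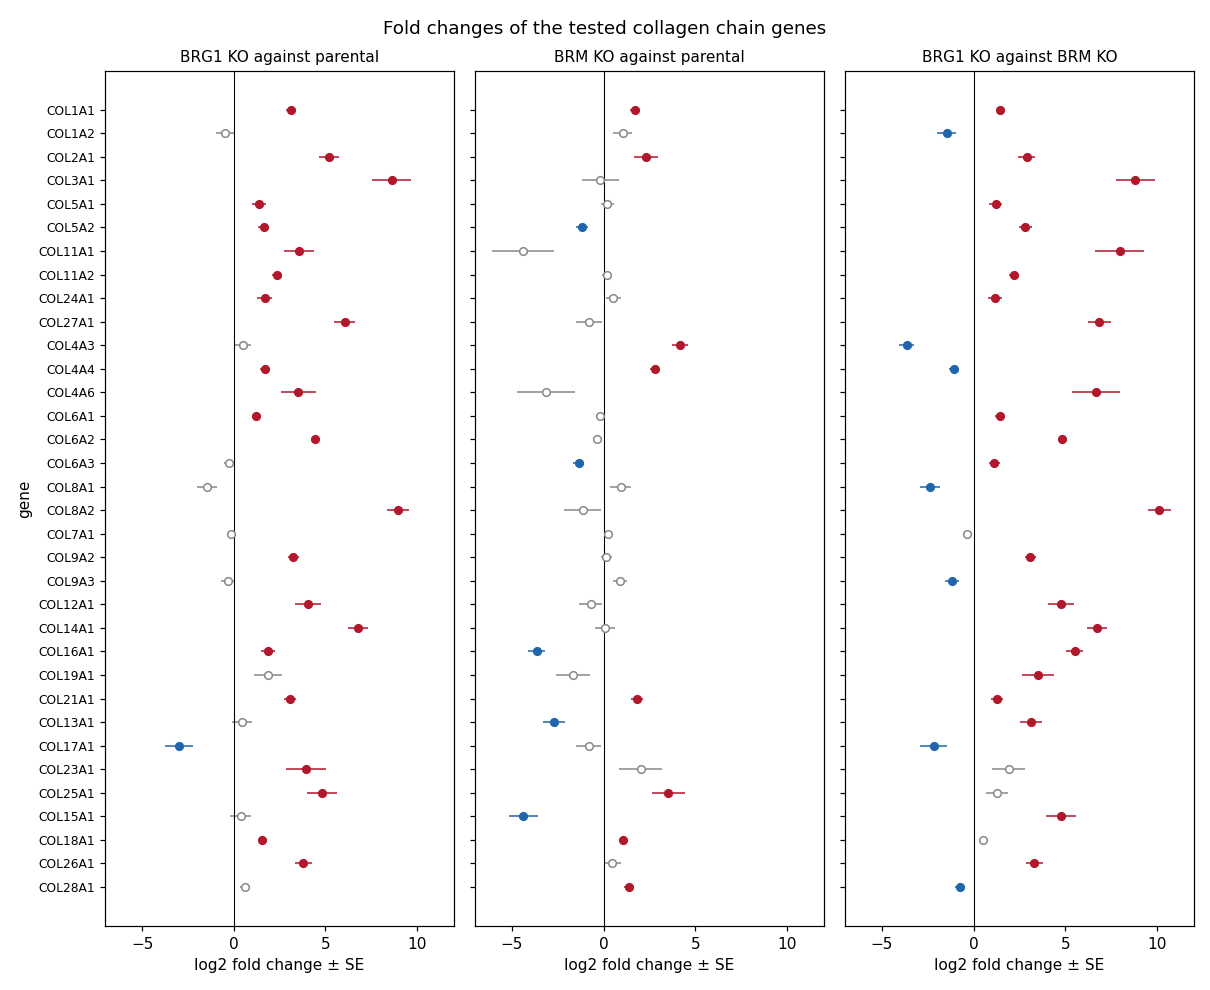
Log2 fold change with its approximate standard error for the 34 tested chains in the 3 comparisons. Filled red points are higher and filled blue points lower at an edgeR adjusted p under 0.05, and open points did not pass. The first panel holds 23 red points and 1 blue, the second 8 and 5, the third 23 and 7. The COL11A1 points of both comparisons with BRM KO are fitted values against a group with 0 reads.

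Markers of other cell types moved with these counts, and their part in the result was not tested. Against parental cells, 21.6% of all tested genes were higher and 21.9% lower in BRG1 KO cells, and 21.0% and 16.4% in BRM KO cells. Of 10 fibroblast markers other than collagens 5 were tested, of which 4 rose in BRG1 KO cells (THY1, PDGFRA, PDGFRB and FBLN1). In BRM KO cells FBLN1 rose and PDGFRA fell (0.84 ± 0.25 and -2.77 ± 0.46, edgeR adjusted p = 0.021 and 0.0012). The list summed to 458 to 599 CPM in BRG1 KO libraries, 19.5 to 20.3 CPM in BRM KO libraries and 13.8 to 30.3 CPM in parental libraries. FBLN1 alone made up 412 to 513 CPM of the BRG1 KO sum, while DCN, the defining small proteoglycan of fibroblasts, stayed at 0.0553 to 0.526 CPM there, DPT at 0 to 0.0526 CPM, and MFAP5 and PI16 were at 0 reads in all 3. Of 8 epithelial markers 7 were tested, of which 6 fell in BRG1 KO cells, with a list sum of 423 to 1218 CPM in BRG1 KO, 5536 to 6356 CPM in BRM KO and 5459 to 5876 CPM in parental libraries. The lowest of those sums was that of BRG1 KO replicate 3. SFTPB, which marks alveolar type II cells, was at or below 0.0602 CPM in every library. Of 4 smooth muscle markers 1 rose in BRG1 KO cells, CNN1, and the list summed to 8.92 to 23.2 CPM there, 4.73 to 7.21 CPM in BRM KO and 2.01 to 3.16 CPM in parental libraries. Of 8 endothelial markers 5 were tested, of which 2 rose in BRM KO cells. PECAM1 was lower there without passing (-1.75 ± 0.68, edgeR adjusted p = 0.065), and CDH5 did not pass either (1.27 ± 0.88, edgeR adjusted p = 0.28). The list summed to 4.84 to 5.06 CPM in BRG1 KO, 48.3 to 75.6 CPM in BRM KO and 5.35 to 9.92 CPM in parental libraries. Blood markers summed to at most 3.64 CPM in any library.

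Among the fibrillar chains, type I collagen showed its partner genes apart. COL1A1 (ENSG00000108821.13, hg38 chromosome 17, 50183289 to 50201632, minus strand), its major chain, stood at 249, 283 and 208 CPM in BRG1 KO libraries, 112, 73.5 and 89.2 CPM in BRM KO libraries, and 38.6, 23.7 and 23.2 CPM in parental libraries. No library of a group reached into another group. The log2 difference from parental cells was 3.12 ± 0.25 in BRG1 KO and 1.69 ± 0.24 in BRM KO cells (approximate SE, 3 libraries a group, with an edgeR adjusted p of 7.2e-06 and 0.00049), and BRG1 KO exceeded BRM KO cells by 1.43 ± 0.23 (edgeR adjusted p = 0.00058). COL1A2 (ENSG00000164692.17, chromosome 7, 94394561 to 94431232, plus strand), the partner that makes the usual heterotrimer, read 0.483, 0.947 and 0.470 CPM in BRG1 KO libraries, 1.64, 2.02 and 1.67 CPM in BRM KO libraries, and 1.60, 0.678 and 0.358 CPM in parental libraries. Its BRG1 KO and parental values overlapped, and neither knockout passed against parental cells (-0.45 ± 0.53 in BRG1 KO and 1.03 ± 0.51 in BRM KO, edgeR adjusted p = 0.52 and 0.14). Without parental replicate 1 the BRG1 KO value was 0.30 (edgeR adjusted p = 0.65) and the BRM KO value 1.77, which passed (edgeR adjusted p = 0.018). Per length, the level of COL1A1 was 335, 237 and 514 times that of COL1A2 in BRG1 KO libraries, 83.4, 55.7 and 111 times in BRM KO libraries, and 48.9, 27.5 and 66.9 times in parental libraries.

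COL3A1 (ENSG00000168542.14, chromosome 2, 188974320 to 189012746, plus strand), which forms homotrimers that mix into type I fibres, was at 84.5, 109 and 739 CPM in BRG1 KO libraries, against 0.965, 0.723 and 0.380 CPM in BRM KO and 1.32, 0.417 and 0.668 CPM in parental libraries. Replicate 3 of the BRG1 KO was the highest by far, and the lowest BRG1 KO library still lay above all others. Left out, replicate 3 lowered the log2 difference to 6.88 from parental and 7.16 from BRM KO cells (edgeR adjusted p = 2e-06 and 1.1e-06), against 8.62 and 8.82 with it. The neighbouring gene COL5A2 lies 19149 bases away on the opposite strand.

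Type V collagen starts and narrows fibres of type I. COL5A2 (ENSG00000204262.12, chromosome 2, 189031896 to 189225312, minus strand) was at 10.8, 9.79 and 12.1 CPM in BRG1 KO libraries, 1.88, 0.813 and 1.90 CPM in BRM KO libraries, and 3.69, 2.77 and 4.05 CPM in parental libraries, with no overlap between groups. It rose by 1.64 ± 0.31 in BRG1 KO (edgeR adjusted p = 0.0018) and fell by 1.19 ± 0.32 in BRM KO cells (edgeR adjusted p = 0.014), a fall that missed the threshold without parental replicate 3 (-1.07, edgeR adjusted p = 0.059) and with transcript length offsets (-1.31, edgeR adjusted p = 0.053). COL5A1 (ENSG00000130635.15, chromosome 9, 134641774 to 134844843, plus strand) was at 7.19, 6.34 and 9.32 CPM in BRG1 KO libraries, 3.67, 1.93 and 4.33 CPM in BRM KO libraries, and 1.66, 2.97 and 4.01 CPM in parental libraries. All 3 BRG1 KO libraries lay above the rest, while BRM KO and parental values overlapped. Its rise of 1.40 ± 0.38 in BRG1 KO cells (edgeR adjusted p = 0.012) was 0.29 and did not pass once transcript lengths entered as offsets (edgeR adjusted p = 0.6). The assigned transcripts differed: COL5A1-201 held 95.4% to 100% of the gene's reads in BRG1 KO libraries and 0% in parental libraries, where COL5A1-208 held 78.0% to 88.7% and the short retained-intron transcript COL5A1-203, of 913 bases, most of the rest. In BRM KO libraries COL5A1-201 held 95.5%, 0% and 0%, so replicate 1 was assigned like BRG1 KO and replicates 2 and 3 like parental cells. COL5A3, the third chain, had 2 reads in BRG1 KO, 4 in BRM KO and 3 in parental cells and was not tested.

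The cartilage-type fibrillar chains were low in parental cells and higher in BRG1 KO cells. COL2A1 makes type II collagen, and type XI collagen joins COL11A1, COL11A2 and a form of the COL2A1 chain. COL11A2 (ENSG00000204248.10) was at 9.55, 7.52 and 7.19 CPM in BRG1 KO libraries, 2.20, 1.39 and 1.75 CPM in BRM KO libraries and 1.87, 1.46 and 1.41 CPM in parental libraries. It rose by 2.36 ± 0.27 in BRG1 KO cells (edgeR adjusted p = 7.9e-05) and differed by 0.17 ± 0.27 in BRM KO cells, whose values overlapped with parental ones (edgeR adjusted p = 0.65). COL2A1 (ENSG00000139219.18) reached 1.85, 1.24 and 1.22 CPM in BRG1 KO libraries, 0.268, 0.151 and 0.152 CPM in BRM KO libraries, and 0.0614, 0.0261 and 0.0238 CPM in parental libraries. Its groups did not overlap in CPM, but its parental level rests on 4 reads, and in BRM KO cells the rise of 2.31 ± 0.63 (edgeR adjusted p = 0.015) missed the threshold without BRM KO replicate 1 or without parental replicate 2 or 3 (edgeR adjusted p from 0.061 to 0.067). In BRG1 KO cells its rise was 5.20 ± 0.57 (edgeR adjusted p = 5.7e-05), or 3.98 with transcript length offsets (edgeR adjusted p = 0.025). Those offsets ended the BRM KO call (2.51, edgeR adjusted p = 0.19) and that of BRG1 KO against BRM KO cells, 1.47 (edgeR adjusted p = 0.25) beside 2.89 without them (edgeR adjusted p = 0.00054). Per length its groups did overlap, at 0.283 to 1.10 TPM in BRG1 KO, 0.0421 to 0.724 TPM in BRM KO and 0.0108 to 0.0970 TPM in parental libraries. Transcripts that code for no protein held 39.7% of its reads in BRG1 KO, 71.4% in BRM KO and 100% in parental cells. COL11A1 had 92 reads in BRG1 KO, 0 in BRM KO and 8 in parental cells, of which 7 were in parental replicate 3. It rose by 3.56 ± 0.83 in BRG1 KO cells (edgeR adjusted p = 0.0079), or 5.60 without that replicate (edgeR adjusted p = 0.0038), and was at least 30.9-fold higher in BRG1 KO than in BRM KO cells, counting 3 reads over the group as the floor.

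The remaining fibrillar chains, COL24A1 and COL27A1, were of different size in their response. COL27A1 (ENSG00000196739.14), a chain of growth plate cartilage fibrils, stood at 22.0, 18.2 and 11.98 CPM in BRG1 KO libraries, 0.161, 0.241 and 0.0506 CPM in BRM KO libraries, and 0.184, 0.522 and 0.0715 CPM in parental libraries. Every BRG1 KO library was far above the 6 others, and the rise was 6.05 ± 0.59 (edgeR adjusted p = 2.6e-05), or 7.10 without parental replicate 2 and 4.94 with transcript length offsets. COL24A1 rose by 1.68 ± 0.41 in BRG1 KO cells (edgeR adjusted p = 0.007) with 1.03 to 1.74 CPM there, 0.482 to 0.778 CPM in BRM KO and 0.287 to 0.549 CPM in parental libraries.

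The beaded filament collagen VI, which encircles cells in a fine mesh, joins COL6A1, COL6A2 and COL6A3 in 1 trimer, and the 3 genes differed. COL6A2 (ENSG00000142173.14, chromosome 21, 46098097 to 46132849, plus strand) read 604, 612 and 413 CPM in BRG1 KO libraries, 19.7, 20.0 and 18.8 CPM in BRM KO libraries, and 27.4, 27.1 and 22.2 CPM in parental libraries. All BRG1 KO libraries were far above the other 6, with a rise of 4.41 ± 0.20 over parental cells (edgeR adjusted p = 4.8e-07). The BRM KO libraries were all below the parental ones, a difference of -0.39 ± 0.17 that did not pass (edgeR adjusted p = 0.099) and passed in several other settings, such as -0.48 without BRG1 KO replicate 3 (edgeR adjusted p = 0.0082) and -1.04 with GC content and length offsets (edgeR adjusted p = 0.00069). Its promoter window is shown because COL6A2 had the highest mean TPM of the chains in BRG1 KO cells. The window runs from 250 bases before to 50 after the RefSeq start (GRCh38.p14, chr21:46097862-46098161, plus strand), and capitals mark matches to the GC box letters GGGCGG, to the TATA box letters TATAAA, to CCAAT and to the AP-1 letters TGANTCA, each read on both strands.
COL6A2: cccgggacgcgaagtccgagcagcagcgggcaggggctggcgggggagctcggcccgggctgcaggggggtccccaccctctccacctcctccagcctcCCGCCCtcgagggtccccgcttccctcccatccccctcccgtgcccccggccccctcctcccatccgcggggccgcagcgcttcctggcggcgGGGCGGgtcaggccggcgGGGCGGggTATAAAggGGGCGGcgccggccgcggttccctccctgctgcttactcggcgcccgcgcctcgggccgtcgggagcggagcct
It holds 4 GC box matches and 1 TATA box match, and none of the other motifs.

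COL6A1 (ENSG00000142156.14, chromosome 21, 45981737 to 46005050, plus strand) ends 93046 bases before COL6A2 on the same strand. COL6A1 was at 554, 436 and 271 CPM in BRG1 KO libraries, 178, 118 and 174 CPM in BRM KO libraries, and 172, 180.1 and 182 CPM in parental libraries, and so was abundant in every group. The BRG1 KO libraries lay above all others, replicate 3 being the lowest of them, and the rise was 1.24 ± 0.25 (edgeR adjusted p = 0.0022), or 0.62 and past no threshold with replicate 3 as the only BRG1 KO library, assumed to vary like the libraries of the other groups (edgeR adjusted p = 0.057). COL6A3 (ENSG00000163359.15, chromosome 2, 237324003 to 237414375, minus strand), the long chain of the trimer, did not follow: it was at 3.72, 4.66 and 5.06 CPM in BRG1 KO libraries, 1.69, 2.56 and 1.90 CPM in BRM KO libraries, and 5.53, 6.65 and 3.67 CPM in parental libraries. BRG1 KO and parental values overlapped (-0.24 ± 0.29, edgeR adjusted p = 0.53), and BRM KO cells were lower than parental ones by the log2 difference of -1.37 ± 0.30 (edgeR adjusted p = 0.0047). Per length, COL6A2 was at 1.21, 1.43 and 1.80 times the level of COL6A1 in BRG1 KO libraries, 0.138, 0.190 and 0.129 times in BRM KO libraries and 0.201, 0.152 and 0.154 times in parental libraries. The order of these partners was thus turned round in BRG1 KO cells, while COL6A3 stayed at 0.353 to 0.842 TPM on average in the 3 groups.

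Type VIII collagen forms the hexagonal networks of endothelial and corneal basement layers, and its partner chains went opposite ways. COL8A2 (ENSG00000171812.12, chromosome 1, 36095236 to 36125220, minus strand) was at 36.4, 61.9 and 94.3 CPM in BRG1 KO libraries, 0.0536, 0 and 0.101 CPM in BRM KO libraries, and 0.184, 0.0261 and 0.167 CPM in parental libraries. These are 7043 reads in BRG1 KO, 6 in BRM KO and 14 in parental cells, and the rise over parental cells was 8.97 ± 0.58 (edgeR adjusted p = 2.7e-06). COL8A1 (ENSG00000144810.15, chromosome 3, 99638475 to 99799226, plus strand) was at 15.5, 19.4 and 78.3 CPM in BRG1 KO libraries, 239, 151 and 198 CPM in BRM KO libraries, and 144, 86.0 and 82.3 CPM in parental libraries. The 3 groups did not overlap, with BRM KO libraries highest and BRG1 KO libraries lowest. BRG1 KO cells were lower than BRM KO cells by a log2 difference of -2.38 ± 0.57 (edgeR adjusted p = 0.0078), or -3.47 without BRG1 KO replicate 3 (edgeR adjusted p = 1.1e-05). Against parental cells the difference was -1.46 ± 0.56 and did not pass (edgeR adjusted p = 0.058), but without BRG1 KO replicate 3, whose 78.3 CPM was near the parental range, it was -2.63 and passed (edgeR adjusted p = 6.1e-05). The BRM KO difference of 0.92 ± 0.55 did not pass either (edgeR adjusted p = 0.22) and passed without that library at 0.83 (edgeR adjusted p = 0.016).

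Per length, COL8A1 was at 0.690, 0.399 and 1.47 times the level of COL8A2 in BRG1 KO libraries, and at 352 to 6634 times its level in the parental and BRM KO libraries with any COL8A2 read. The window of COL8A2 (chr1:36125173-36125472, minus strand, same marks) is shown for the chain with the largest log2 rise in BRG1 KO cells.
COL8A2: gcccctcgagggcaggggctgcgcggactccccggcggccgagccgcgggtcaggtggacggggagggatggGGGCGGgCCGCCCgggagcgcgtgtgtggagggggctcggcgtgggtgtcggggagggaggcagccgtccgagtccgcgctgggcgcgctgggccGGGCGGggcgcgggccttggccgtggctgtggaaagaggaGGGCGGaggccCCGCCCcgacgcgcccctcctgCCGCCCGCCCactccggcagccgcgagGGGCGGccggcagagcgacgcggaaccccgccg
It holds 8 GC box matches, overlapping ones counted, 45 CpG dinucleotides and 82% G or C, with no match to the other motifs. The transcript COL8A2-202, which starts in this window at 36125220, was assigned 73.5%, 57.9% and 100% of the gene's reads in BRG1 KO libraries. COL8A2-201, which starts outside it at 36100249, was assigned 26.5%, 42.1% and 0%. COL10A1, the third hexagonal network gene, known from growth plate cartilage, had 14, 10 and 5 reads in BRG1 KO, BRM KO and parental cells and was not tested.

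FACIT collagens decorate fibres, and 5 of the 7 tested chains rose in BRG1 KO cells. COL14A1 (ENSG00000187955.11), which regulates fibre width in skin and tendon, was at 83.9, 47.6 and 208 CPM in BRG1 KO libraries, 1.21, 1.05 and 0.962 CPM in BRM KO libraries, and 1.04, 1.10 and 0.930 CPM in parental libraries. BRM KO and parental values could not be separated (0.07 ± 0.53, edgeR adjusted p = 0.93), and in BRG1 KO cells the rise was 6.79 ± 0.55 (edgeR adjusted p = 1.4e-05), or 5.93 without replicate 3 (edgeR adjusted p = 1.6e-07). COL12A1 (ENSG00000111799.20, chromosome 6, 75084326 to 75206051, minus strand), a long chain on type I fibres, was at 192, 175 and 809.7 CPM in BRG1 KO libraries, 22.6, 11.1 and 9.34 CPM in BRM KO libraries, and 13.8, 36.0 and 20.4 CPM in parental libraries. Replicate 3 was again the highest library. The rise was 4.07 ± 0.70 with it (edgeR adjusted p = 0.0014) and 2.90 without it (edgeR adjusted p = 0.0015).

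COL9A2 (ENSG00000049089.14), a chain of the type IX collagen of cartilage, was at 85.1, 50.2 and 35.7 CPM in BRG1 KO libraries, 7.32, 5.30 and 7.26 CPM in BRM KO libraries, and 7.12, 5.22 and 5.58 CPM in parental libraries. Here replicate 3 was the lowest BRG1 KO library and still above the others, with a rise of 3.26 ± 0.31 (edgeR adjusted p = 2.3e-05). Its partner COL9A3 (ENSG00000092758.17) was at 2.13, 1.63 and 0.968 CPM in BRG1 KO libraries, 2.92, 4.61 and 3.39 CPM in BRM KO libraries, and 2.64, 1.15 and 2.07 CPM in parental libraries, and did not pass in either knockout against parental cells (edgeR adjusted p = 0.55 and 0.091). Transcripts that code for no protein held 38.3%, 15.7% and 0% of the COL9A3 reads in BRG1 KO libraries, 100% in each BRM KO library, and 82.2%, 100% and 96.1% in parental libraries. COL9A1, the other partner, had 0 reads in BRG1 KO, 1 in BRM KO and 4 in parental cells.

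COL16A1 (ENSG00000084636.17, chromosome 1, 31652247 to 31704319, minus strand), found near fibrils and basement membranes, moved in opposite directions in the knockouts. It was at 8.84, 9.81 and 4.32 CPM in BRG1 KO libraries, 0.107, 0.211 and 0.177 CPM in BRM KO libraries, and 1.505, 2.04 and 2.77 CPM in parental libraries, with no overlap between groups. It rose by 1.86 ± 0.37 in BRG1 KO (edgeR adjusted p = 0.0022) and fell by 3.66 ± 0.46 in BRM KO cells (edgeR adjusted p = 0.0003). With transcript length offsets the rise was 1.32 and missed the threshold (edgeR adjusted p = 0.065), while the BRM KO difference was -2.82 and passed (edgeR adjusted p = 0.0069). With replicate 3 as the only BRG1 KO library the COL16A1 rise was 1.04. COL21A1 (ENSG00000124749.16) rose in both knockouts, with 18.4, 11.3 and 28.9 CPM in BRG1 KO libraries, 8.26, 6.26 and 9.94 CPM in BRM KO libraries, and 2.61, 2.01 and 2.41 CPM in parental libraries. Its groups kept apart, at 3.06 ± 0.34 in BRG1 KO and 1.80 ± 0.33 in BRM KO cells (edgeR adjusted p = 6.2e-05 and 0.002), and the BRM KO rise was 1.01 and missed the threshold with transcript length offsets (edgeR adjusted p = 0.12). COL19A1 had 82 reads in BRG1 KO, 7 in BRM KO and 23 in parental cells and was higher in BRG1 KO than in BRM KO cells by 3.52 ± 0.87 (edgeR adjusted p = 0.0073). Its difference of BRG1 KO from parental cells, 1.85 ± 0.76, did not pass (edgeR adjusted p = 0.069), but did without BRG1 KO replicate 2 (2.23, edgeR adjusted p = 0.027) and with transcript length offsets (3.36, edgeR adjusted p = 0.018).

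Of the 6 basement membrane genes, COL4A3 and COL4A4 rose in BRM KO cells, COL4A6 did not pass, and the other 3 were not tested. COL4A3 (ENSG00000169031.19, chromosome 2, 227164565 to 227314792, plus strand) was at 5.77, 5.27 and 5.09 CPM in BRM KO libraries and 0.461, 0.157 and 0.286 CPM in parental libraries, a rise of 4.16 ± 0.44 (edgeR adjusted p = 0.00014). In BRG1 KO libraries it was at 0.341, 0.289 and 0.636 CPM, which overlapped with parental values (0.50 ± 0.45, edgeR adjusted p = 0.39), and BRG1 KO cells were lower than BRM KO cells by a log2 difference of -3.66 ± 0.42 (edgeR adjusted p = 5.7e-05). COL4A4 (ENSG00000081052.12, chromosome 2, 227002711 to 227164453, minus strand), its partner in the collagen IV of kidney and lung basement membranes, was at 4.92, 3.89 and 7.08 CPM in BRG1 KO libraries, 10.1, 13.6 and 10.2 CPM in BRM KO libraries, and 1.66, 1.54 and 1.60 CPM in parental libraries. It rose by 1.73 ± 0.27 in BRG1 KO and 2.82 ± 0.28 in BRM KO cells (edgeR adjusted p = 0.0005 and 0.00012), with no overlap between the 3 groups. Per length, COL4A4 was at 11.6, 14.2 and 2.87 times the level of COL4A3 in BRG1 KO libraries, 1.06, 0.821 and 0.795 times in BRM KO libraries, and 2.89, 7.90 and 4.48 times in parental libraries, so the partners stood near equal levels in BRM KO cells.

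COL4A3 and COL4A4 lie head to head on opposite strands, with their outermost GENCODE starts 112 bases apart and their RefSeq starts 419 bases apart. Most of their reads were assigned to the transcripts COL4A3-202 and COL4A4-201, which start at 227164565 and 227164236. The RefSeq windows of both genes are shown because the genes share this stretch and rose together in BRM KO cells (chr2:227164374-227164673, plus strand, and chr2:227164156-227164455, minus strand, same marks).
COL4A3: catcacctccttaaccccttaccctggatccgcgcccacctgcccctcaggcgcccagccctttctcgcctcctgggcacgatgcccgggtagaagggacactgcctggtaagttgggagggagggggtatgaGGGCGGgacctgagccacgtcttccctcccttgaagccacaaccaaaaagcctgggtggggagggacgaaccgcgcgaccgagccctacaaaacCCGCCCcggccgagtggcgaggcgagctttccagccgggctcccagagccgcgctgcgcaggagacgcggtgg
COL4A4: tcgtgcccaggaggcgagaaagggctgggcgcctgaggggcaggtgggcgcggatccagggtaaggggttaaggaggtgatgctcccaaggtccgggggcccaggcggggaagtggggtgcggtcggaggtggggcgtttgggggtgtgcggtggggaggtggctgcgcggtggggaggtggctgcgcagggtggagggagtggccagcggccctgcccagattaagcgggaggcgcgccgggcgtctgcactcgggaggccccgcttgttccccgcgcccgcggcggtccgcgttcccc
The windows share 82 bases with the same letters, read on opposite strands. The COL4A3 window holds 2 GC box matches, the COL4A4 window none, and neither holds a match to the other motifs.

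The other collagen IV pairs also lie head to head and were low in parental cells. COL4A6 (ENSG00000197565.15), 347 bases from the start of COL4A5 on the X chromosome, was at 0.966, 0.368 and 2.55 CPM in BRG1 KO libraries, 0, 0.0301 and 0 CPM in BRM KO libraries and 0.215, 0 and 0.119 CPM in parental libraries. It rose by 3.53 ± 0.95 in BRG1 KO cells (edgeR adjusted p = 0.011), or 2.51 without replicate 3 (edgeR adjusted p = 0.049) and 4.32 without parental replicate 1 (edgeR adjusted p = 0.017). With 140 reads against 1, the ratio of BRG1 KO to BRM KO cells was 141, with a 95% counting interval from 24.9 to 5603. COL4A5 did not pass the filter and stood at 0.199, 0.263 and 3.51 CPM in BRG1 KO libraries, with 2 reads in BRM KO and 15 in parental cells, 7.31 times lower in BRM KO (95% counting interval 1.70 to 65.9), and replicate 3 was the highest BRG1 KO library for both neighbours. COL4A1 and COL4A2, the chains of nearly every basement membrane, had 0 and 5 reads in BRG1 KO, 22 and 17 in BRM KO, and 10 and 12 in parental cells, and neither was tested.

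The transmembrane collagens sit in the cell surface and split by gene. COL17A1 (ENSG00000065618.19, chromosome 10, 104031286 to 104085957, minus strand), which anchors epithelial cells at hemidesmosomes, was at 4.86, 3.87 and 0.332 CPM in BRG1 KO libraries, 18.2, 5.48 and 17.2 CPM in BRM KO libraries, and 16.8, 29.2 and 26.1 CPM in parental libraries. BRG1 KO libraries lay below all others, replicate 3 lowest, and the log2 difference from parental cells was -2.99 ± 0.76 (edgeR adjusted p = 0.01), or -2.54 without replicate 3 (edgeR adjusted p = 0.0032). It missed the threshold when no filter on low counts was used (-3.08, edgeR adjusted p = 0.056). Its window (chr10:104085831-104086130, minus strand, same marks) is shown as that of the chain that fell in BRG1 KO cells.
COL17A1: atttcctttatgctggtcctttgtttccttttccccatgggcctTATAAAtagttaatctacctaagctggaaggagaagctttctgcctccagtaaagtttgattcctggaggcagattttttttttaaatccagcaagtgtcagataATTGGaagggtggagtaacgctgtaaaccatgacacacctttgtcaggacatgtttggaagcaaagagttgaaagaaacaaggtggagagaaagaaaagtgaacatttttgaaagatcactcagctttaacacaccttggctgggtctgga
It holds 1 CpG, 40.7% G or C, 1 CCAAT match and 1 TATA box match, and no GC box or AP-1 match. The median window of the chains held 63.7% G or C. The windows of COL4A6, which rose in BRG1 KO cells, held 43.7% and 50% G or C, with 7 and 5 CpG. Whether the make-up of the window goes with the direction of change was not tested. COL13A1 (ENSG00000197467.14), a chain of cell junctions and of the nerve-muscle synapse, was at 15.3, 24.3 and 16.7 CPM in BRG1 KO libraries, 0.563, 4.61 and 1.34 CPM in BRM KO libraries, and 10.9, 15.1 and 15.9 CPM in parental libraries. BRM KO libraries lay below all others, and the difference from parental cells was -2.70 ± 0.59 (edgeR adjusted p = 0.006), or -3.86 without BRM KO replicate 2 (edgeR adjusted p = 0.00032). COL25A1, first known from brain, rested on 64 reads in BRG1 KO, 26 in BRM KO and 2 in parental cells, a ratio to parental of 33.0 in BRG1 KO (95% counting interval 8.77 to 278) and 13.3 in BRM KO cells (3.34 to 116). Both passed (edgeR adjusted p = 0.001 and 0.01), and both parental reads were in replicate 3. COL23A1 rose by 3.94 ± 1.09 in BRG1 KO cells (edgeR adjusted p = 0.014), with 94 reads against 6 in parental cells, all 6 of them in replicate 2, and missed the threshold without parental replicate 3 (3.33, edgeR adjusted p = 0.051), while without parental replicate 2 it was 7.99 (edgeR adjusted p = 0.0069) against a group at 0 reads.

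Multiplexins, whose tails release fragments such as endostatin, are COL15A1 and COL18A1. COL18A1 (ENSG00000182871.14, chromosome 21, 45405137 to 45513720, plus strand) was at 617, 667 and 606 CPM in BRG1 KO libraries, 538, 339.7 and 463 CPM in BRM KO libraries, and 287, 176 and 179 CPM in parental libraries. The groups did not overlap, and the rise was 1.56 ± 0.23 in BRG1 KO and 1.06 ± 0.23 in BRM KO cells (edgeR adjusted p = 0.00034 and 0.0042). The direct difference of BRG1 KO from BRM KO cells was 0.50 ± 0.22 and did not pass (edgeR adjusted p = 0.092). It passed in some other settings, such as 0.70 with transcript length offsets and 0.95 with GC content and length offsets (edgeR adjusted p = 0.037 and 0.0017). With GC content and length offsets the BRM KO rise was 0.37 and did not pass (edgeR adjusted p = 0.14). COL18A1 shares 1401 exonic bases with SLC19A1 on the opposite strand, which stood at 46.1, 33.0 and 31.6 CPM on average in BRG1 KO, BRM KO and parental cells, and since the strand setting is not given, reads there could be split between them. COL15A1 had 91 reads in BRG1 KO, 3 in BRM KO and 73 in parental cells. It was 23.7 times lower in BRM KO than in parental cells (95% counting interval 7.81 to 118, edgeR adjusted p = 0.0019), with 2 of the 3 BRM KO reads in replicate 2, without which the fitted log2 difference was -5.31 beside -4.39 with it. Its BRG1 KO and parental values overlapped (0.37 ± 0.56, edgeR adjusted p = 0.62).

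COL7A1 (ENSG00000114270.17), the anchoring fibril chain of stratified epithelia, passed in none of the 3 comparisons. It was at 137, 128 and 164 CPM in BRG1 KO libraries, 186, 140.2 and 233 CPM in BRM KO libraries, and 129, 165 and 180.4 CPM in parental libraries, and all groups overlapped. Without BRM KO replicate 2 it was lower in BRG1 KO than in BRM KO cells by a log2 difference of -0.55 that passed (edgeR adjusted p = 0.047), beside -0.38 with it (edgeR adjusted p = 0.15). The retained-intron transcript COL7A1-210 held 26.8%, 40.6% and 12.6% of its reads in BRG1 KO libraries, 13.4%, 18.4% and 17.1% in BRM KO libraries, and 8.69%, 5.66% and 7.22% in parental libraries. BRG1 KO replicate 3 lay below the BRM KO libraries and above the parental ones, and these shares were not tested. COL28A1 (ENSG00000215018.9), a chain related to collagen VI, was at 11.7, 8.50 and 6.58 CPM in BRG1 KO libraries, 16.5, 10.7 and 17.8 CPM in BRM KO libraries, and 6.88, 5.24 and 5.37 CPM in parental libraries, a rise of 1.36 ± 0.27 in BRM KO cells (edgeR adjusted p = 0.0029) and a value of 0.61 ± 0.27 in BRG1 KO cells that did not pass (edgeR adjusted p = 0.086). Without BRG1 KO replicate 3 that value was 0.72 and passed (edgeR adjusted p = 0.037). COL26A1 (ENSG00000160963.13) was at 4.32, 3.63 and 2.96 CPM in BRG1 KO libraries, 0.215, 0.632 and 0.253 CPM in BRM KO libraries, and 0.307, 0.209 and 0.262 CPM in parental libraries, a rise of 3.80 ± 0.45 in BRG1 KO cells (edgeR adjusted p = 9.1e-05).

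**Figure D4:**
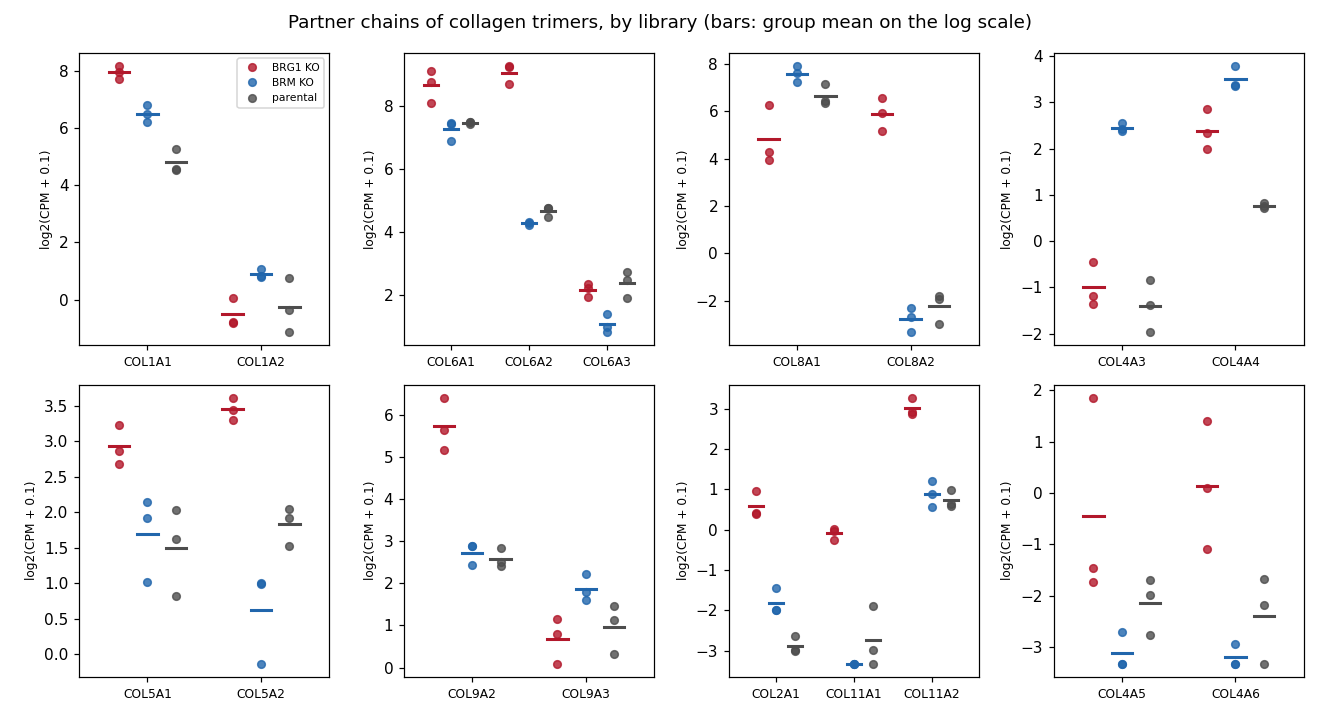
Levels of 8 sets of partner chains in each library, as log2 of CPM plus 0.1 (vertical axis), with a bar at the group mean on that scale, BRG1 KO in red, BRM KO in blue and parental in grey. COL6A2, COL8A2, COL9A2 and COL1A1 are highest in red, where their partners COL6A3, COL8A1, COL9A3 and COL1A2 are not. COL6A1 is highest in red like its partner COL6A2. The partners COL5A1 and COL5A2 are both highest in red, as are COL2A1, COL11A1 and COL11A2. COL4A3 and COL4A4 are both highest in blue.

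The filter on low counts left 10 of the 44 chains untested, of which COL4A5 alone had more than 22 reads over a group. COL6A5 had 0, 0 and 1 reads in BRG1 KO, BRM KO and parental cells, COL6A6 1, 5 and 3, COL20A1 2, 5 and 19, and COL22A1 0, 1 and 2. COL20A1 was 9.21 times higher in parental than in BRG1 KO cells by these reads, with a 95% counting interval from 2.22 to 81.5, and COL4A1 was at least 7.29-fold lower in BRG1 KO than in BRM KO cells. These intervals cover counting error only, and no test between libraries was made of the untested chains.

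Promoter windows of the chains were compared with those of all genes as a description. RefSeq gave 44 windows for 32 of the chains, against 34943 windows of 300 bases over 27167 genes. A GC box match was found in 24 of the 44 and in 44.9% of all windows, a CCAAT match in 14 of the 44 and 34.6% of all, a TATA box match in 8 and 11.6%, and an AP-1 match in 1 and 7.72%. The median window held 17.0 CpG among the chains and 14.0 among all genes. A match of letters is not a binding site, and the absence of one says nothing of the factor.

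Genes that make, cut, join and bind collagen were read next, since a chain needs them to become a fibre. Of 50 such genes 47 were tested, and in BRG1 KO against parental cells 32 rose and 2 fell, with a median log2 difference of 1.07 beside -0.01 over all genes, where 21.6% of all were higher and 21.9% lower. In BRM KO cells 11 rose and 9 fell, with a median of 0.16 beside 0.09 over all genes, where 21.0% of all were higher and 16.4% lower. The 11 became 5 without parental replicate 2, 4 without parental replicate 3, 7 without BRG1 KO replicate 1, and 6 without BRM KO replicate 1 or 3. Over all tested genes the count higher in BRM KO cells also fell, from 3814 to 2457 and 2469 without parental replicates 2 and 3. It was 3239 without BRG1 KO replicate 1, and 2656 and 2782 without BRM KO replicates 1 and 3. In BRG1 KO against BRM KO cells 30 were higher and 4 lower, where 21.6% of all genes were higher and 23.8% lower. By role in BRG1 KO cells, 12 of 15 hydroxylation and glycosylation genes rose, 5 of 10 folding and export genes, 4 of 7 propeptide cleavage genes, 5 of 6 cross-linking and fibril binding genes, and 6 of 9 receptors.

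Among the enzymes that modify the chains, P3H2, a prolyl 3-hydroxylase, was at 292, 304 and 315 CPM in BRG1 KO libraries, 29.5, 23.0 and 20.8 CPM in BRM KO libraries, and 52.0, 41.5 and 40.9 CPM in parental libraries. It rose by 2.76 ± 0.17 in BRG1 KO and fell by 0.87 ± 0.17 in BRM KO cells (edgeR adjusted p = 2.2e-06 and 0.0023), with no overlap between groups. P4HA3, a prolyl 4-hydroxylase subunit, rose by 5.45 ± 0.56 in BRG1 KO cells (edgeR adjusted p = 3.7e-05), or 4.73 without replicate 3, and stood at 8.81 to 34.2 CPM there and 0.391 to 0.549 CPM in parental libraries. P4HA3 also rose in BRM KO cells, by 1.79 ± 0.53 (edgeR adjusted p = 0.022). P3H3, another prolyl 3-hydroxylase, rose by 1.22 ± 0.22 in BRM KO and 1.01 ± 0.22 in BRG1 KO cells (edgeR adjusted p = 0.0018 and 0.0035). Its direct difference of BRG1 KO from BRM KO cells did not pass (-0.21 ± 0.21, edgeR adjusted p = 0.46). SERPINH1, the chaperone that holds new collagen helices, did not follow the chains: it was at 354, 479 and 472 CPM in BRG1 KO libraries, 222, 195 and 201 CPM in BRM KO libraries, and 546, 558 and 526 CPM in parental libraries. It fell by 1.40 ± 0.16 in BRM KO cells (edgeR adjusted p = 0.00018) and differed by -0.32 ± 0.15 in BRG1 KO cells, which did not pass (edgeR adjusted p = 0.11). CREB3L1, a transcription factor of collagen export, moved opposite ways, by 1.91 ± 0.40 in BRG1 KO and -1.61 ± 0.41 in BRM KO cells (edgeR adjusted p = 0.0031 and 0.011).

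Of the propeptide cleavage genes, BMP1, the main protease of the C-terminal propeptide, was at 292, 352 and 153 CPM in BRG1 KO libraries, 255, 343 and 333 CPM in BRM KO libraries, and 128, 118 and 117 CPM in parental libraries. It rose in both, by 1.13 ± 0.26 in BRG1 KO and 1.36 ± 0.26 in BRM KO cells (edgeR adjusted p = 0.005 and 0.0026). PCOLCE2, an enhancer of that protease, rose by 2.87 ± 0.30 in BRG1 KO cells (edgeR adjusted p = 3.7e-05). ADAMTS3, which removes N-terminal propeptides, fell by 2.02 ± 0.29 in BRM KO cells (edgeR adjusted p = 0.00056) and did not pass in BRG1 KO cells (0.46 ± 0.28, edgeR adjusted p = 0.21).

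Among the cross-linking and fibril binding genes, SPARC, a secreted protein that binds fibrillar collagen, was at 1460, 1766 and 2149 CPM in BRG1 KO libraries, 2.74, 1.45 and 1.72 CPM in BRM KO libraries, and 92.0, 88.8 and 67.1 CPM in parental libraries. The direct difference of BRG1 KO from BRM KO cells was 9.83 ± 0.34 (edgeR adjusted p = 9.9e-08). LOXL1, a lysyl oxidase, was at 40.5, 68.6 and 33.3 CPM in BRG1 KO libraries, 2.39, 3.16 and 3.06 CPM in BRM KO libraries and 3.87, 3.60 and 2.81 CPM in parental libraries, a rise of 3.79 ± 0.29 in BRG1 KO cells (edgeR adjusted p = 5.6e-06). LOXL4, another lysyl oxidase, rose by 4.87 ± 1.00 in BRG1 KO and 3.35 ± 0.96 in BRM KO cells (edgeR adjusted p = 0.0037 and 0.022), and its BRM KO value rested on replicate 2, at 26.8 CPM beside 2.98 and 5.42 CPM, being 1.87 and past no threshold without it (edgeR adjusted p = 0.075). The BRM KO call was also lost without parental replicate 2 or 3 (edgeR adjusted p = 0.092 and 0.085). Without parental replicate 1 the LOXL4 values were 6.09 in BRG1 KO and 4.57 in BRM KO cells.

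Collagen receptors split by gene. ITGA10 and ITGA2 are integrin subunits that pair with ITGB1 to bind collagen, and they went opposite ways in BRG1 KO cells. ITGA10 was at 49.7, 25.3 and 47.8 CPM in BRG1 KO libraries, 0.751, 0.482 and 0.405 CPM in BRM KO libraries, and 1.87, 0.965 and 1.36 CPM in parental libraries, while ITGA2 was at 18.9, 7.47 and 16.0 CPM in BRG1 KO libraries, 184, 138 and 225 CPM in BRM KO libraries, and 95.7, 101 and 86.6 CPM in parental libraries. Neither gene's groups overlapped. ITGA10 rose by 4.87 ± 0.36 in BRG1 KO and fell by 1.35 ± 0.38 in BRM KO cells (edgeR adjusted p = 4.7e-06 and 0.017), and in direct comparison ITGA2 was lower in BRG1 KO than in BRM KO cells by a log2 difference of -3.69 ± 0.33 (edgeR adjusted p = 1.1e-05). MRC2, which takes collagen fragments into the cell, rose by 2.92 ± 0.22 in BRG1 KO and 0.60 ± 0.21 in BRM KO cells (edgeR adjusted p = 5.2e-06 and 0.04). ITGA1 fell by 0.95 ± 0.34 in BRM KO cells (edgeR adjusted p = 0.047), a call lost without parental replicate 1 or 2 or any BRM KO replicate (log2 differences from -0.68 to -1.11, edgeR adjusted p from 0.06 to 0.16).

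**Figure D5:**
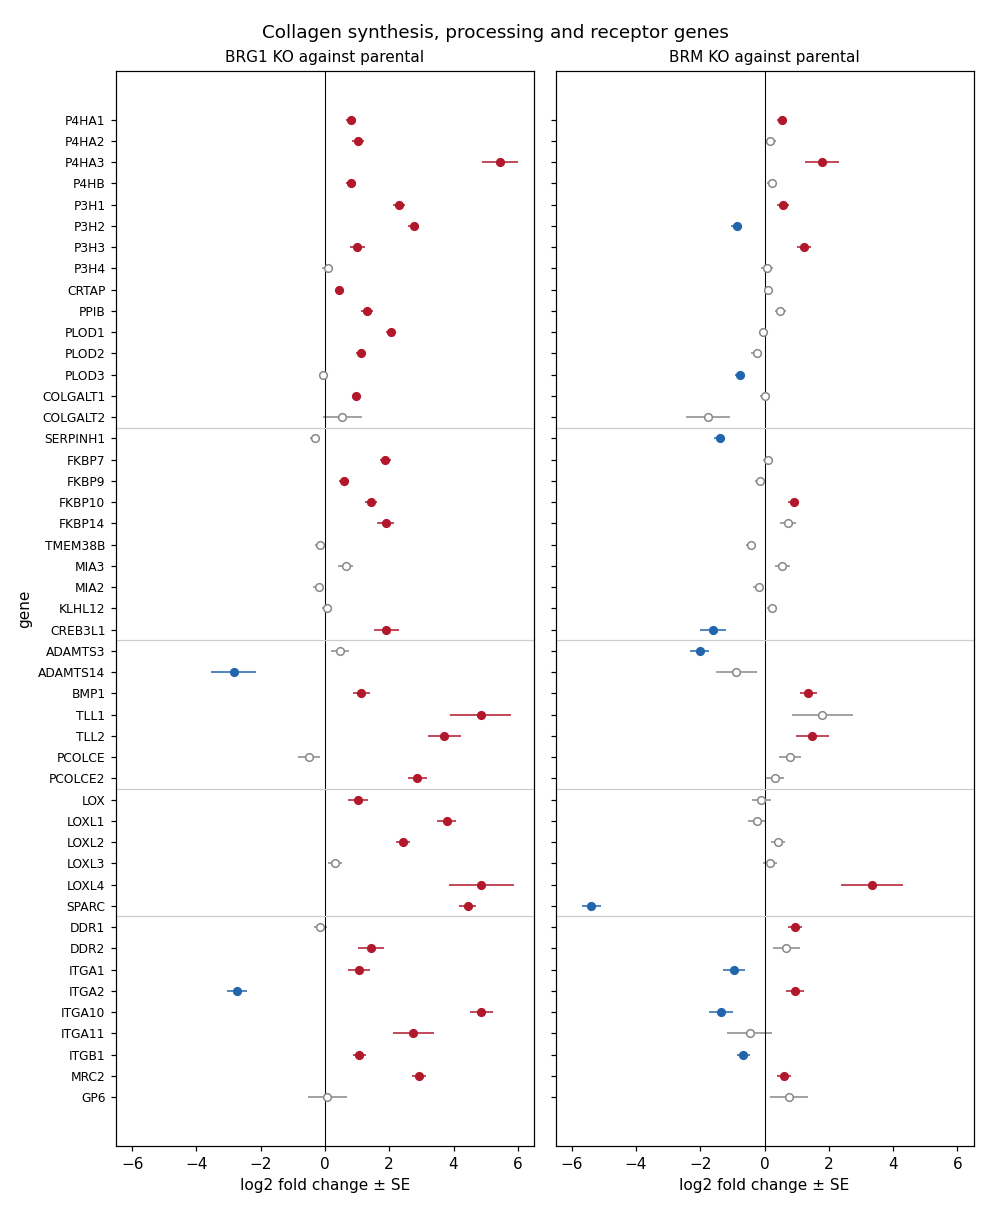
Log2 fold change with its approximate standard error of the 47 tested collagen synthesis, processing and receptor genes, BRG1 KO against parental on the left and BRM KO against parental on the right, with grey lines between roles. Filled red points are higher, filled blue points lower and open points did not pass. The left panel holds 32 red and 2 blue points, the right panel 11 red and 9 blue, with SPARC far right in the first and far left in the second.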

How the data were processed

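RNA-seq was read in 9 libraries of H358 cells, 3 per group. The authors deposited 1 quantification file per library with estimated counts and TPM per transcript, which per the submitters' processing notes were made with Salmon on hg38. The sources used here give no Salmon version, library type or strand setting, and the notes also name DESeq2. Per the file headers the deposited values are transcript length, effective length, TPM and the estimated read number. The deposited estimated counts were summed per gene with the GENCODE release 29 annotation, which matched 203746 of 203835 transcripts (202888 with the same version), and rounded to whole numbers. In no library did the unmatched 89 hold more than 0.0193% of reads. The deposited TPM were summed per gene.

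Genes were filtered with filterByExpr (10 reads, here 0.268 CPM), scaled with TMM and fitted with edgeR 4.0.16 (R 4.3.3) quasi-likelihood models over all 3 groups, with 6 residual degrees of freedom and robust dispersions. Standard errors are approximate, from the fold change and its F value. Precision is set by 3 libraries per group and by read numbers: intervals on ratios of reads (exact, 95%) and the floor of 3 reads over a group cover counting error only. Alternatives were RLE scaling, DESeq2 1.42.0, limma 3.58.1 voom, other filters, only the groups compared, a replicate block, transcript length offsets, GC content with length offsets, and leaving out libraries. The last included BRG1 KO replicate 3 with parental replicate 1, and BRG1 KO replicates 1 and 2. The code was tested on simulated data.

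The collagen chains, the pathway and marker lists and the tests were chosen with earlier results of these data known. The naming rule took the chains of a partner set with a call, and per comparison the called genes with the largest absolute log2 change, up to 12 chains with a mean of at least 1 CPM and 8 pathway genes with at least 5 CPM in the higher group. Other genes were named after their values were seen. Promoter windows and their letters come from RefSeq (GRCh38.p14).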

Additional observations from a re-analysis of the deposited data

How the results depend on the processing

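Of the 24 collagen chains called in BRG1 KO against parental cells, 18 kept their call and direction under every alternative that gave a value, as did 9 of 13 in BRM KO against parental cells and 21 of 30 in BRG1 KO against BRM KO cells, and no called chain changed sign. Chains lower in BRG1 KO than in parental cells numbered 1, and 2 under DESeq2, limma voom, the stricter filter and without parental replicate 1 and BRG1 KO replicate 3 together, with 1 to 2 over single libraries left out. Chains lower in BRG1 KO than in BRM KO cells numbered 7, and 3 to 7 over single libraries left out. Of the pathway genes, 11 higher in BRM KO cells became 5 with no filter and 4 to 14 over single libraries left out, and with GC content and length offsets 2 lower in BRG1 KO cells became 4 and 9 lower in BRM KO cells became 14. Over all tested genes, 3814 higher in BRM KO cells became 3082 with no filter and 2457 to 4033 over single libraries left out. With GC content and length offsets, 3984 lower in BRG1 KO cells became 4950 and 2991 lower in BRM KO cells became 3921. Same-numbered libraries correlated between -0.08 and 0.17 in their deviations from the group means, so the numbers were not taken to pair samples. With the replicate block the counts higher and lower were 24 and 2 in BRG1 KO against parental, 8 and 5 in BRM KO against parental and 23 and 6 in BRG1 KO against BRM KO cells, and COL19A1 in BRG1 KO against parental cells was 1.83 and passed (edgeR adjusted p = 0.047). Log2 values that did not pass changed sign as follows, and the cause was not tested. In BRG1 KO against parental cells COL1A2 was 0.40, COL9A3 0.13 and COL15A1 -0.24 without parental replicate 1 and BRG1 KO replicate 3 together, and COL7A1 0.33 with transcript length offsets and 0.06 without BRG1 KO replicates 1 and 2. Over single libraries left out, COL1A2 ranged from -0.92 to 0.30 and COL15A1 from -0.04 to 0.91. In BRM KO against parental cells the GC content and length offsets gave COL5A1 -0.33, COL7A1 -0.42, COL9A2 -0.40, COL11A2 -0.35, COL14A1 -0.03 and COL26A1 -0.05, and transcript length offsets gave COL5A1 -0.85 and COL9A2 -0.14. COL14A1 was -0.03 with no filter and -0.02 in the fit of the 2 groups, without BRG1 KO replicates 1 and 2, and without parental replicate 1 and BRG1 KO replicate 3, where COL3A1 was 0.22 and COL5A1 -0.18. Over single libraries left out, COL3A1 ranged from -0.62 to 0.33, COL5A1 from -0.08 to 0.51, COL9A2 from -0.02 to 0.30, COL11A2 from -0.10 to 0.32, COL14A1 from -0.12 to 0.15, COL26A1 from -0.14 to 0.69 and COL27A1 from -1.28 to 0.25. In BRG1 KO against BRM KO cells COL7A1 was 0.01 with GC content and length offsets and COL25A1 -0.68 with transcript length offsets. Depth limits the chains with the fewest reads, such as COL2A1 with 4 reads over the parental group.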

Other observations

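Genes named after collagens that code for no chain were outside the comparisons. COL18A1-AS1, annotated antisense to COL18A1, was the only one of them that passed the filter on low counts, and it passed in none of the 3 comparisons: its log2 differences were 0.27 in BRG1 KO against parental, 0.92 in BRM KO against parental and -0.65 in BRG1 KO against BRM KO cells (edgeR adjusted p = 0.82, 0.4 and 0.53). The pseudogene COL6A4P1 stayed at or below 0.0789 CPM in every library.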
